A study of Arabidopsis thaliana with 6 samples.

Results

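The genes described here encode 10 stress-responsive transcription factors of the ethylene response factor (ERF) type, out of 19616 genes in the count table. They were taken by their identifiers, and are ERF1A (AT4G17500), ERF2 (AT5G47220), ERF4 (AT3G15210), ERF5 (AT5G47230), ERF6 (AT4G17490), ERF11 (AT1G28370), ERF13 (AT2G44840), ERF104 (AT5G61600), RRTF1 (AT4G34410) and ORA47 (AT1G74930). All 10 were in the table and passed its filter on low counts. They were chosen by their measured difference between the groups compared below, so their own values are given as a description, with no test. Whole seedlings of wild type *Arabidopsis thaliana* Col-0 were treated with *Priestia megaterium* YC4-R4, a plant growth-promoting bacterium applied in 0.45% NaCl as carrier (3 libraries), and control seedlings received the same carrier free of bacteria (3 libraries). All plants were 13 days old, counted from germination, and were collected 7 days after treatment (7 DAT). Each sample was a ground mixture of whole plants, so roots and shoots were not separated, and fewer cells of a type cannot be told apart from less RNA per cell. RNA sequencing gave between 15292377 and 21904205 counted reads per treated library and between 10804936 and 20040520 per control library. The treated libraries were therefore the deeper ones on average, and the counts were scaled for this.

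The AP2/ERF family is one of the large families of plant transcription factors, named for the DNA-binding domain that all its members carry. Many ERF proteins bind the GCC box, a short promoter element, and either activate or repress defense and stress genes. Their transcripts are known to respond within minutes to wounding, touch, pathogens, jasmonate and ethylene, and some of the proteins are stabilized when mitogen-activated protein kinases phosphorylate them. The members fall into 4 subfamily groups. ERF1A, ERF2, ERF5, ERF6, ERF13 and ERF104 belong to group IX, whose proteins are mostly activators. ERF4 and ERF11 belong to group VIII and carry an EAR motif, a short stretch that recruits co-repressors. RRTF1, known for its fast response to changes in redox state, belongs to group X, and ORA47, a regulator of jasmonate synthesis, belongs to group II.

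All the member genes lie on nuclear chromosomes and have a single annotated exon (RefSeq TAIR10.1, from which all positions here were taken). It spans the whole gene in 9 of them, and in ERF4 it begins 119 bases after the annotated gene start. Among them are neighbours of the same group on opposite strands, with their starts facing. ERF6 (chr4:9752824-9754161, minus strand) and ERF1A (chr4:9759203-9760391, plus strand) have 5042 bases between their starts and no annotated gene there. ERF2 (chr5:19171643-19172956, minus strand) and ERF5 (chr5:19179881-19181182, plus strand) have 6925 bases between their starts, with 2 annotated genes in that stretch. The closest relatives by protein sequence were not neighbours. ERF1A and ERF2 were identical at 70.7% of aligned residues, and ERF5 and ERF6 at 64.9%, so that each neighbouring pair holds 1 gene of either kind. ERF4 (chr3:5121303-5122562, plus strand) and ERF11 (chr1:9955774-9956980, minus strand) shared 54.1%. The others are ERF13 (chr2:18495215-18496327, plus strand), ERF104 (chr5:24766344-24767732, minus strand), RRTF1 (chr4:16451876-16453260, plus strand) and ORA47 (chr1:28143851-28145058, plus strand). Despite this relatedness, no stretch of 50 bases in 9 of the 10 genes occurred anywhere else in the genome, and in ORA47 3 of its 1159 such stretches did.

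The 200 bases before the annotated gene start are shown for the 4 members with a G box there, the element CACGTG bound by bHLH and bZIP factors, and for ERF11, the only member with the GCC box that ERF proteins themselves bind. They come from the RefSeq TAIR10.1 assembly and run 5′ to 3′ on the strand of the gene. Capitals mark the G box (CACGTG), the GCC box (GCCGCC) and the W box (TTGACC or TTGACT, the element of WRKY factors). The positions are chr4:9759003-9759202 on the plus strand for ERF1A, chr5:19172957-19173156 on the minus strand for ERF2, chr3:5121103-5121302 on the plus strand for ERF4, chr4:16451676-16451875 on the plus strand for RRTF1 and chr1:9956981-9957180 on the minus strand for ERF11.
ERF1A: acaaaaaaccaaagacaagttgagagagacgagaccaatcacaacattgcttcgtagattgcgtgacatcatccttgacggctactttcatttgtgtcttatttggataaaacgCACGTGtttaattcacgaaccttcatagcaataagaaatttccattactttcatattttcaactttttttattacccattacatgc
ERF2: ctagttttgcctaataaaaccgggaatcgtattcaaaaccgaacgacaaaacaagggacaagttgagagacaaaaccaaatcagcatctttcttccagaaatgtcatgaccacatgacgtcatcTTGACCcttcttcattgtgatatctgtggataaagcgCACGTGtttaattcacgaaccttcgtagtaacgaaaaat
ERF4: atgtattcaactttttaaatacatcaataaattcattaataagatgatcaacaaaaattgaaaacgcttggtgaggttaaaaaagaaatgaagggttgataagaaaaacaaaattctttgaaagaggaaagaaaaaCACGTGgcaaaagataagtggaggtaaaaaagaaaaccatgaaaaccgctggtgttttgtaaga
RRTF1: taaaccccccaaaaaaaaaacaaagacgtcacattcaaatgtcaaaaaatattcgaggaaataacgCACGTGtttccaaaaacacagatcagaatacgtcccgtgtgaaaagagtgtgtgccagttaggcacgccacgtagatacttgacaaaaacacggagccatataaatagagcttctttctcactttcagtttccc
ERF11: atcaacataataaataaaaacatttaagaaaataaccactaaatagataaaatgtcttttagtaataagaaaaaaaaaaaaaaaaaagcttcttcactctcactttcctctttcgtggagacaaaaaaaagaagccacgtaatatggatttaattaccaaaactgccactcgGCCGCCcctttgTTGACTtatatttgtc

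The upstream stretches of ERF1A and ERF2 had an identical run of 26 bases around the G box, cgCACGTGtttaattcacgaaccttc. ERF1A and RRTF1 shared 13 bases at the same element, aacgCACGTGttt. The G box stood 86 bases before the annotated gene start in ERF1A, 39 in ERF2, 64 in ERF4 and 134 in RRTF1, counted from its first base. In ERF4 that start lies 119 bases before the exon. Its distance is thus not to the exon, and the search window below does not reach its exon. In the window of 250 bases before to 50 bases after the start, searched on both strands, 4 of 10 members held a G box, against 7.68% of 27443 promoters of protein-coding genes. A W box occurred in 4 of 10 members (ERF2, ERF4, ERF5 and ERF11), against 32.4% of promoters, and the GCC box in 1 of 10, against 2.57%. In ERF11 the GCC box began 28 bases and the W box 16 bases before the start. The rapid stress response core CGCGTT was in 0 of 10 members and in 3.4% of promoters, the DRE core CCGAC in 1 of 10 (ERF5) and in 15.0%, and the TATA box TATAAA in 6 of 10 and in 52.1%. These matches are descriptions of letters and not of bound sites. The members with a G box included both RRTF1, with the largest difference between the groups, and ERF2, with one of the smallest. A link between motifs and differences was not tested.

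The summed level of the 10 genes was 193.6, 206.0 and 210.8 CPM (read counts scaled to library depth, here with TMM factors, the trimmed mean of M-values) in the treated libraries, against 361.1, 363.7 and 377.5 CPM in the control libraries. Each of the 10 genes was lower in every treated library than in any control library, a pattern that 13.8% of all 19615 genes tested also had. The limits used for all genes were an edgeR quasi-likelihood p of 0.05 or less after Benjamini-Hochberg adjustment, and a fold of 1.5 or more. Of the members, 7 were past both limits in the lower direction (1.54% of all genes were) and 10 were past the adjusted p limit alone (4.52% of all genes). Because the members were selected on this contrast, nothing is read from these counts. The median log2 fold change of treated over control was −1.14 over the members and −0.0049 over all genes.

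**Figure D1:**
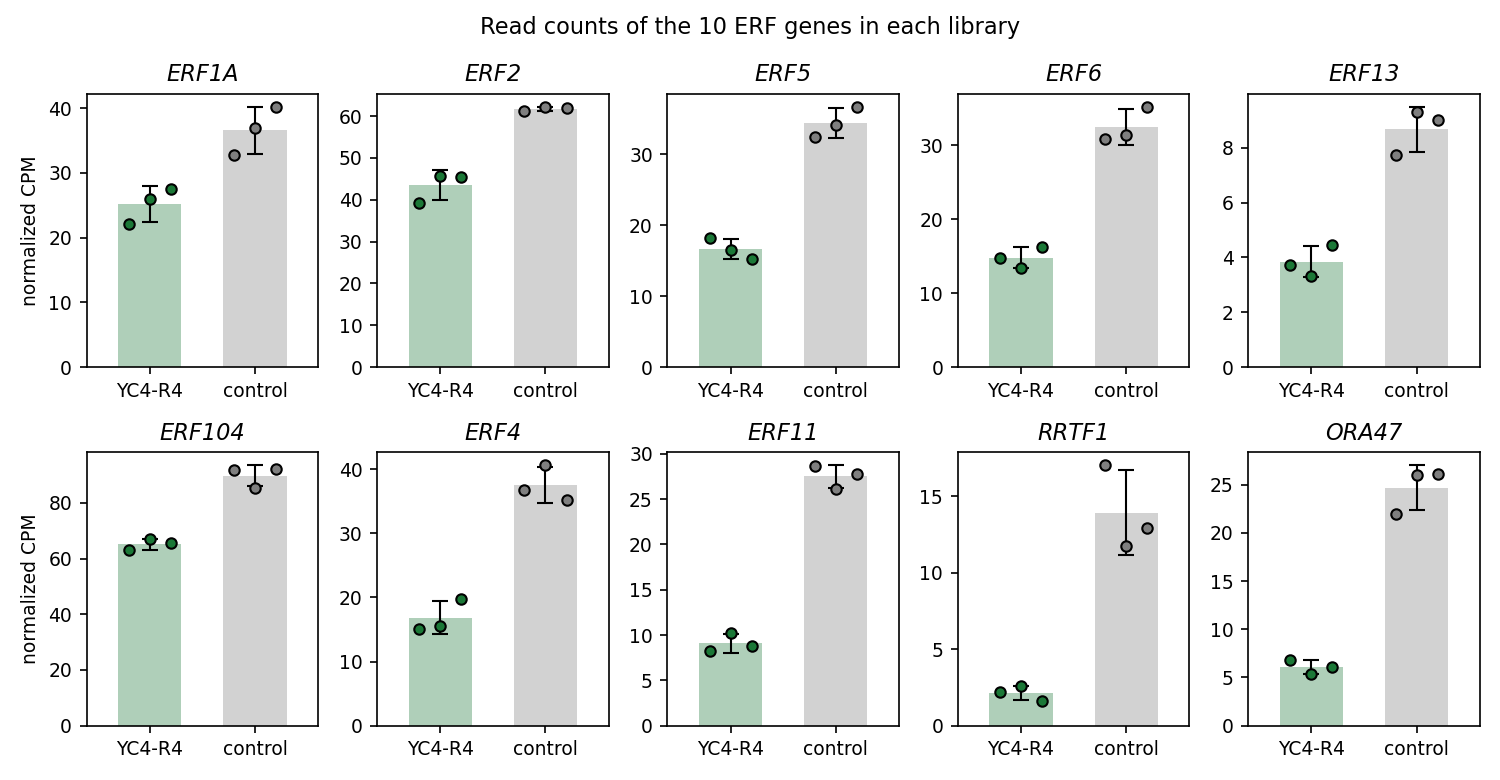
TMM-normalized CPM of each ERF gene (vertical axes, each starting at 0) in seedlings treated with *P. megaterium* YC4-R4 (green) and in control seedlings (grey). Points are libraries, bars are means and error bars are SD (n = 3 each). The treated points lie below the control points in all 10 panels, most widely apart for RRTF1 (2.14 against 13.9 CPM on average).

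Among the activators of group IX, ERF13, ERF6 and ERF5 had the largest differences. ERF13, a factor known to be induced by pathogens and oxylipins, had 3.72, 3.34 and 4.47 CPM in the treated libraries, against 7.75, 9.30 and 8.99 CPM in the control libraries (log2 fold change −1.17, SE 0.145). It was the member with the fewest reads in control seedlings, with between 85 and 180 counts per library there and between 52 and 90 in treated seedlings. ERF6, a target of the kinases MPK3 and MPK6 and an activator of oxidative stress and defense genes, had 14.8, 13.4 and 16.2 CPM in treated seedlings, against 30.9, 31.3 and 35.3 CPM in control seedlings (log2 fold change −1.13, SE 0.0943). ERF5, its close relative in the chitin response, had 18.2, 16.6 and 15.3 CPM in treated seedlings, against 32.5, 34.1 and 36.8 CPM in control seedlings (log2 fold change −1.05, SE 0.0896). The groups lay well apart in all these genes, with the lowest control library between 1.73 and 1.90 times the highest treated one.

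The other group IX members differed less. ERF1A, an activator of GCC box genes, had 22.0, 26.0 and 27.5 CPM in treated seedlings, against 32.8, 36.9 and 40.1 CPM in control seedlings (log2 fold change −0.55, SE 0.101). ERF2, its close relative, had 39.3, 45.8 and 45.5 CPM in treated seedlings, against 61.2, 62.1 and 62.0 CPM in control seedlings (log2 fold change −0.51, SE 0.0753). ERF104, a substrate of MPK6 in the response to bacterial flagellin, had 63.1, 67.0 and 65.5 CPM in treated seedlings, against 91.7, 85.4 and 92.3 CPM in control seedlings (log2 fold change −0.46, SE 0.0664). The groups did not overlap in these genes either, although the lowest control library was only 1.19 to 1.34 times the highest treated one. They were the 3 members short of the 1.5-fold limit, and ERF1A crossed it without treated library 3 (−0.62) or without control library 1 (−0.62). Within each neighbouring pair, the gene of the ERF5 and ERF6 kind had the larger difference, −1.13 for ERF6 beside −0.55 for ERF1A and −1.05 for ERF5 beside −0.51 for ERF2.

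Among the repressors of group VIII, ERF11 had a larger difference than any group IX member, while the difference of ERF4 was close to those of ERF13 and ERF6. ERF11, a repressor that acts on ethylene synthesis genes, had 8.26, 10.3 and 8.79 CPM in treated seedlings, against 28.6, 26.2 and 27.8 CPM in control seedlings (log2 fold change −1.60, SE 0.100). Its treated level was thus 32.9% of the control level. ERF4, a repressor of jasmonate-responsive defense genes, had 15.1, 15.6 and 19.8 CPM in treated seedlings, against 36.7, 40.6 and 35.3 CPM in control seedlings (log2 fold change −1.15, SE 0.108). Treated library 3 was the highest of its group for ERF4, and it still lay below all control libraries. Members known as activators and members known as repressors were thus both at lower levels in the treated seedlings.

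RRTF1 and ORA47, the members outside those groups, had the largest differences of all. RRTF1, whose product drives the accumulation of reactive oxygen species when overexpressed, had 2.22, 2.57 and 1.64 CPM in treated seedlings, against 17.0, 11.8 and 12.9 CPM in control seedlings (log2 fold change −2.70, SE 0.188). These values rested on 49, 40 and 33 reads in treated and 187, 143 and 259 reads in control libraries. RRTF1 also varied most among libraries of 1 group, and its lowest control library was still 4.58 times its highest treated one. ORA47, which activates genes of jasmonate synthesis after wounding, had 6.85, 5.39 and 6.06 CPM in treated seedlings, against 22.0, 26.0 and 26.1 CPM in control seedlings (log2 fold change −2.01, SE 0.116). Its treated level was 24.8% of the control level, with no overlap of libraries. Both genes have annotated genes on the opposite strand. RRTF1 overlaps AT4G34412 by 301 bases and a long non-coding RNA gene, AT4G08985, by 661 bases, and ORA47 overlaps AT1G74929 by 102 bases. AT4G34412 itself had a value of −0.03 on the log2 scale (edgeR adjusted p = 0.926), the other overlapping genes were not in the count table, and no source used here gives the strand setting of the counting.

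Levels were compared between genes per kilobase of exon. ERF104 was the highest member in both groups, with 47.0 ± 1.40 CPM per kb in treated and 64.7 ± 2.75 CPM per kb in control seedlings (SD, n = 3 each). ERF2 followed, with 33.1 ± 2.77 CPM per kb in treated and 47.0 ± 0.401 CPM per kb in control seedlings. In treated seedlings the order then ran ERF1A, ERF4, ERF5, ERF6, ERF11, ORA47, ERF13 and RRTF1, and the libraries overlapped between the neighbours ERF4 and ERF5 and between ERF5 and ERF6. In control seedlings it ran ERF4, ERF1A, ERF5, ERF6, ERF11, ORA47, RRTF1 and ERF13, and all neighbours from ERF4 down to ERF11 overlapped. Per kb of the annotated gene span, a length tried after seeing the data, ERF4 had 13.4 CPM in treated and 29.8 CPM in control seedlings, which put it below ERF1A in control seedlings too. From ERF4 to ORA47 the control levels thus lay close together, between 32.9 ± 2.44 and 20.4 ± 1.94 CPM per kb, while in treated seedlings the same genes spread between 21.2 ± 2.37 (ERF1A) and 5.05 ± 0.603 CPM per kb (ORA47). RRTF1 was the lowest member in treated seedlings (1.55 ± 0.340 CPM per kb) and stood above ERF13 in control seedlings (10.05 ± 2.00 against 7.80 ± 0.737 CPM per kb).

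**Figure D2:**
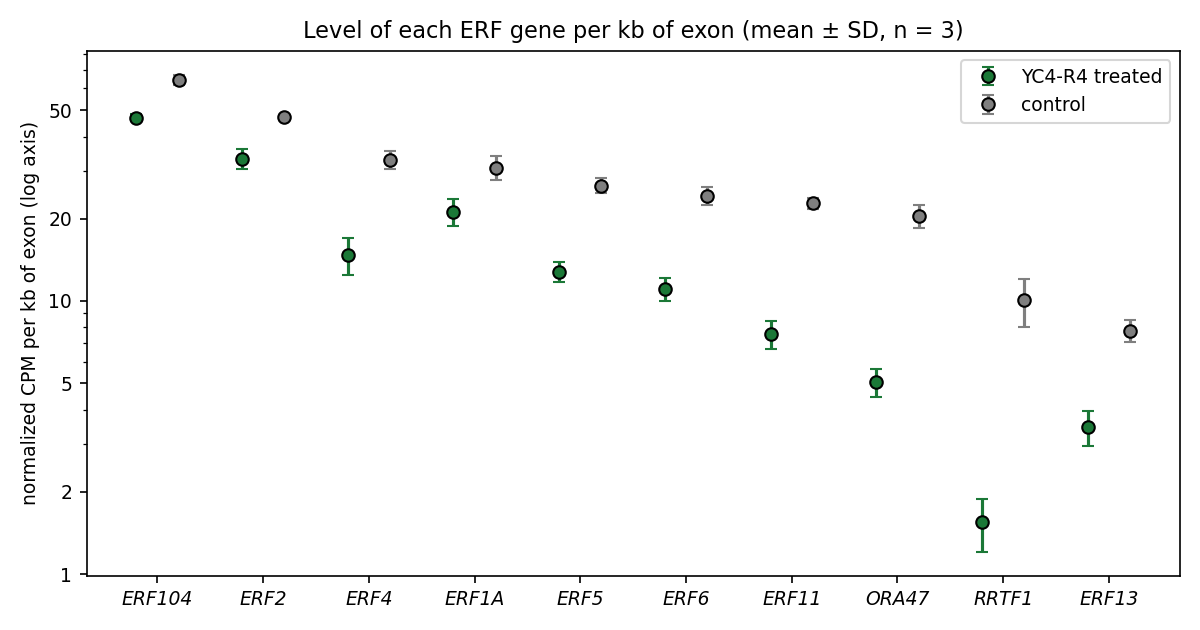
Level of each ERF gene in normalized CPM per kb of exon (log axis) in treated (green) and control (grey) seedlings, as mean ± SD over 3 libraries, ordered by the control level. Control levels between ERF4 and ORA47 are close to each other (32.9 to 20.4 CPM per kb), and the treated levels of the same genes are spread more widely.

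On average over the members, no single library stood apart. The mean deviation of the 10 genes from their group mean lay between −0.03 and 0.04 on the log2 scale in all 6 libraries. The members above their group mean numbered 4, 5 and 6 in treated libraries 1 to 3, and 3, 5 and 8 in control libraries 1 to 3. The SD within groups on the log2 scale had a median of 0.140 over the members, beside 0.129 over all genes, and ranged between 0.0535 and 0.306. Within groups the members did not deviate together, since 22 of their 45 pairs had a positive correlation of deviations over the 6 libraries and the median r was −0.01. These correlations come from 3 libraries in each group and are a description only.

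Other AP2/ERF genes of the same groups, and of group VII, were listed from general knowledge to set the members in their family. The list held 47 genes, of which 32 were in the count table, and 5 of these fell while 0 rose past both limits (1.54% and 1.73% of all genes). For the count of 0, edgeR gave 2 higher genes at an unadjusted p under 0.05, and DESeq2 and limma-voom called 0. Their median log2 fold change was −0.21 (all genes: −0.0049). The members had been taken out of these lists with their values known. The lists therefore hold other genes of each group, and were not checked to be complete.

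In group IX, 2 of 7 listed genes fell. ERF105, a relative of ERF104 in the cold response, had 25.1 ± 1.74 CPM in treated and 40.4 ± 3.48 CPM in control seedlings (SD, n = 3 each, log2 fold change −0.68, adjusted p = 0.000406, edgeR). ERF98, an activator of ascorbate synthesis, had 2.05 ± 0.128 CPM in treated and 3.40 ± 0.688 CPM in control seedlings (SD, n = 3 each, log2 fold change −0.71, edgeR adjusted p = 0.0436). The call of ERF98 was lost on leaving out any one library, with edgeR adjusted p between 0.0597 and 0.143. It was also lost in DESeq2 (adjusted p = 0.0825), which called 1 of the 7 genes. ERF1 and ORA59, the integrators of ethylene and jasmonate signals that drive defensin genes, were not past the limits. ERF1 had 2.24 ± 0.473 CPM in treated and 2.59 ± 0.322 CPM in control seedlings, and ORA59 had 11.9 ± 1.14 CPM in treated and 13.4 ± 1.44 CPM in control seedlings (SD, n = 3 each). Both were named after their values were seen, as was AT5G61590. AT5G61590, the gene next to ERF104, did not pass either limit (log2 fold change 0.10, edgeR adjusted p = 0.527).

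In group VIII, 0 of the 5 other listed genes were called, and 3 lower and 1 higher had an unadjusted p under 0.05 in edgeR, with 0 calls in DESeq2 and limma-voom. ERF7, a repressor in abscisic acid and drought responses, had the smallest p of them, with 20.9 ± 1.74 CPM in treated and 28.0 ± 4.32 CPM in control seedlings (SD, n = 3 each, log2 fold change −0.42, edgeR adjusted p = 0.0405, short of the fold limit). ERF7 was above the adjusted p limit in limma-voom (adjusted p = 0.051). It was also above without treated library 1 or 3 or control library 1 or 2 (edgeR adjusted p between 0.077 and 0.156). In group X, 0 of 5 were called by edgeR, DESeq2 or limma-voom, and 0 had an unadjusted p under 0.05 in edgeR. ABR1, a repressor of abscisic acid responses, had 1.59 ± 0.127 CPM in treated and 1.13 ± 0.248 CPM in control seedlings there (SD, n = 3 each, edgeR adjusted p = 0.337). The log2 fold changes of the 5 ranged between −0.40 and 0.43.

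In group II, 2 of 11 listed genes fell. AT5G21960 had 1.78 ± 0.443 CPM in treated and 5.49 ± 0.199 CPM in control seedlings (SD, n = 3 each, log2 fold change −1.60, edgeR adjusted p = 0.000262). DEAR1, a repressor with a DREB domain known from pathogen and cold responses, had 4.79 ± 1.03 CPM in treated and 8.45 ± 0.544 CPM in control seedlings (SD, n = 3 each, log2 fold change −0.81, edgeR adjusted p = 0.00713). In group VII, whose proteins serve in low oxygen, 1 of 4 fell. This was HRE1, with 7.22 ± 0.764 CPM in treated and 12.2 ± 2.21 CPM in control seedlings (SD, n = 3 each, log2 fold change −0.78, edgeR adjusted p = 0.00546).

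**Figure D3:**
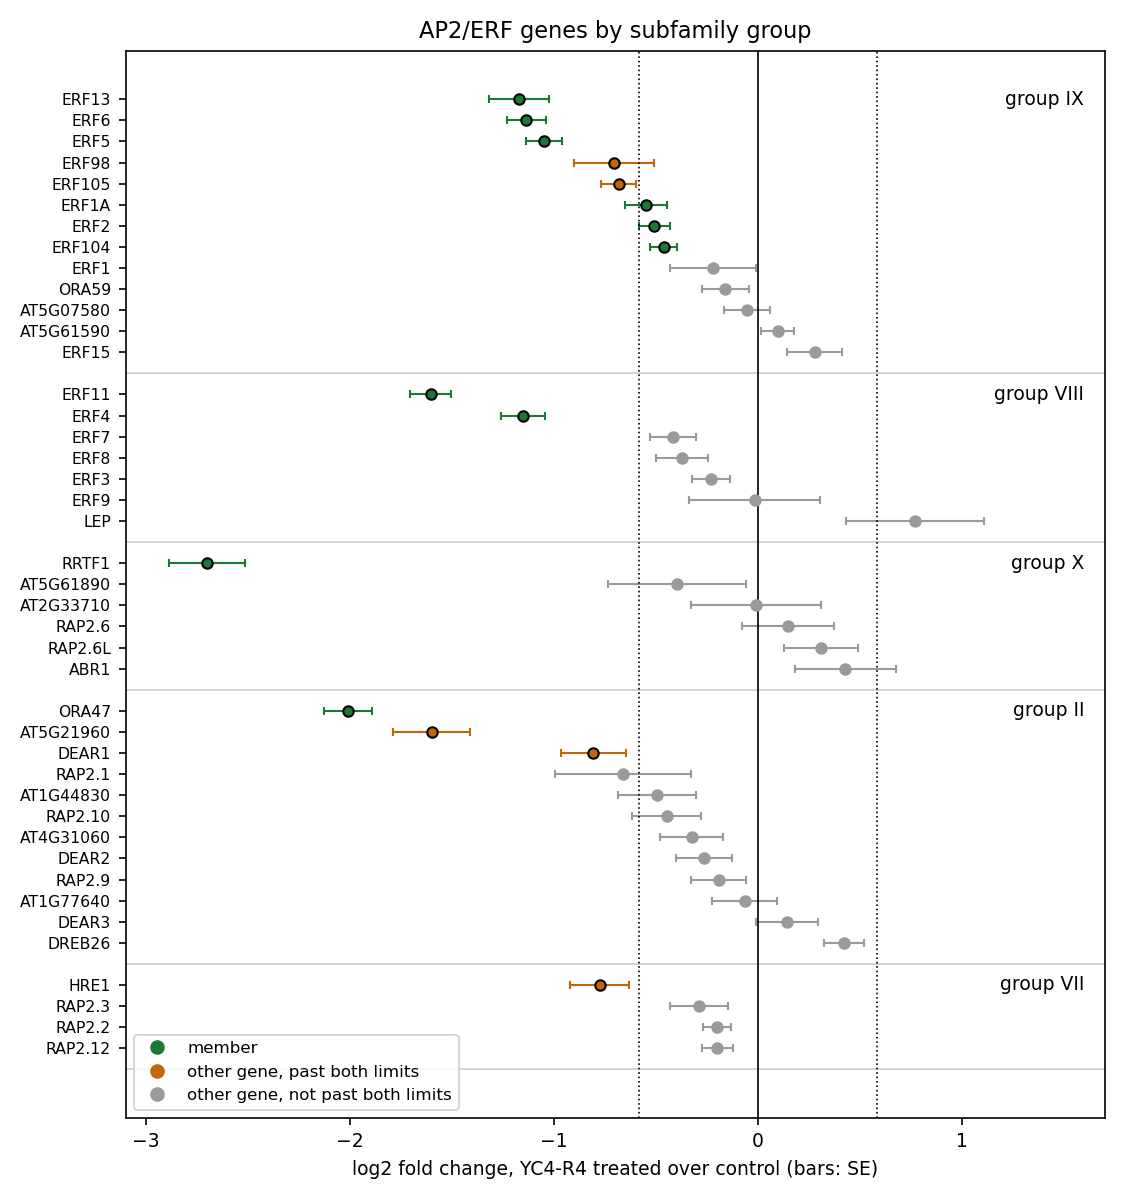
Log2 fold change of treated over control seedlings (horizontal axis, error bars are SE derived from the F statistic) for the 10 members (green) and the 32 other listed AP2/ERF genes in the table, by subfamily group. Orange genes passed both limits and grey genes did not, and the dotted lines mark the 1.5-fold limit. All 10 members lie left of 0, and so do the 5 other genes past both limits.

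Upstream of the ERF genes, ethylene is perceived by receptors that act through the kinase CTR1, and the signal reaches the factors EIN3 and EIL1 through EIN2. None of the 12 listed genes of perception and signaling passed both limits in edgeR, DESeq2 or limma-voom, and 4 lower and 0 higher had an unadjusted p under 0.05 in edgeR. Their median log2 fold change was −0.14 and the range −0.29 to 0.03, with SEs of 0.0656 to 0.109. The share of all genes with an unadjusted p under 0.05 was not worked out, here or for the other lists. The smallest p belonged to RTE1, a regulator of the receptor ETR1, with 9.50 ± 0.542 CPM in treated and 11.7 ± 1.06 CPM in control seedlings (SD, n = 3 each, edgeR adjusted p = 0.135). The receptor genes EIN4 and ERS1 and the F-box gene EBF2 had log2 fold changes of −0.21, −0.16 and −0.15 (edgeR adjusted p = 0.145, 0.186 and 0.183).

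Of 11 listed kinases and regulators known to act on members or on wound and pathogen genes, 0 passed both limits in edgeR, DESeq2 or limma-voom. Of these, 3 had an edgeR adjusted p of at most 0.05, all lower (4.52% of all genes were lower at that limit). MYC2, the main factor of jasmonate signaling, had 92.3 ± 5.89 CPM in treated and 130.7 ± 4.28 CPM in control seedlings (SD, n = 3 each, log2 fold change −0.50, edgeR adjusted p = 0.000905). CAMTA3, a calmodulin-binding factor, had 84.0 ± 2.08 CPM in treated and 103.0 ± 2.97 CPM in control seedlings (SD, n = 3 each, log2 fold change −0.30, edgeR adjusted p = 0.0128). MPK3, the kinase that phosphorylates ERF6, had 179.6 ± 1.19 CPM in treated and 220.6 ± 7.30 CPM in control seedlings (SD, n = 3 each, log2 fold change −0.30, edgeR adjusted p = 0.0141). With library numbers fitted as a block, CAMTA3 and MPK3 were above the adjusted p limit (edgeR adjusted p = 0.0558 and 0.0662). Both were also above it without treated library 1, control library 2 or control library 3 (edgeR adjusted p between 0.0502 and 0.0737). MKK4, which activates MPK3 and MPK6, had a log2 fold change of −0.25 (edgeR adjusted p = 0.0638). At an unadjusted p under 0.05, 5 of these genes were lower and 0 higher.

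Genes described as targets of members, such as defensins and the enzymes of jasmonate synthesis that ORA47 activates, moved in both directions. Of 19 in the table, 1 rose and 1 fell past both limits (1.73% and 1.54% of all genes), and the median log2 fold change was −0.08. WRKY33, a factor of camalexin synthesis and fungal defense, fell, with 103.9 ± 7.43 CPM in treated and 163.9 ± 6.10 CPM in control seedlings (SD, n = 3 each, log2 fold change −0.66, edgeR adjusted p = 0.000195). ACS2, an enzyme of ethylene synthesis that was named after its values were seen, rose, with 3.65 ± 0.386 CPM in treated and 1.95 ± 0.209 CPM in control seedlings (SD, n = 3 each, log2 fold change 0.87, edgeR adjusted p = 0.0113).

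MYB51, a regulator of indole glucosinolates, had 37.9 ± 2.49 CPM in treated and 56.2 ± 1.34 CPM in control seedlings (SD, n = 3 each, log2 fold change −0.57, edgeR adjusted p = 0.000448), and it passed the fold limit without treated library 1 (−0.60) or control library 3 (−0.59). Allene oxide cyclases, which act in jasmonate synthesis, had values of opposite sign. AOC3 had 33.5 ± 1.71 CPM in treated and 50.2 ± 4.38 CPM in control seedlings (SD, n = 3 each, log2 fold change −0.58, edgeR adjusted p = 0.000863), and AOC1 had 107.5 ± 2.06 CPM in treated and 86.6 ± 2.42 CPM in control seedlings (SD, n = 3 each, log2 fold change 0.31, edgeR adjusted p = 0.00949). Both were short of the fold limit, and AOC3 passed it without treated library 2 (−0.61) or 3 (−0.59) or control library 2 (−0.60) or 3 (−0.63).

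Genes known to respond within minutes to touch, wounding or cold, stimuli that also induce several members, were mostly lower in treated seedlings. Of 18 listed, 14 fell and 0 rose past both limits (1.54% and 1.73% of all genes), and the median log2 fold change was −0.89. For the count of 0, 0 genes were higher at an unadjusted p under 0.05 in edgeR and 0 in DESeq2 and limma-voom. CBF1 and CBF2, cold-response factors that are themselves AP2/ERF proteins, both fell, with log2 fold changes of −3.17 and −1.65 (edgeR adjusted p = 8.69e-06 and 4.83e-05). CBF1 had 0.816, 0.578 and 0.546 CPM in treated libraries, against 6.84, 6.01 and 5.29 CPM in control libraries. Its treated values were all under 1 CPM, so a filter of at least 1 CPM in every library removed it. In the other alternatives its log2 fold change ranged between −3.54 and −3.05. The zinc finger gene SZF2 had 83.9 ± 0.939 CPM in treated and 153.9 ± 7.37 CPM in control seedlings, and the repressor gene WRKY40 29.8 ± 4.35 CPM in treated and 69.7 ± 5.81 CPM in control seedlings (SD, n = 3 each, edgeR adjusted p = 1.83e-05 and 3.03e-05). Summed over the list, treated libraries had 1098 to 1186 CPM and control libraries 1814 to 2005 CPM. Plants were removed from soil and cleaned before freezing, and the part of handling in the levels of the members was not tested. The list was drawn up with earlier results of these data known and is no independent support for the members' direction.

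Clock genes were listed because the hour of collection can move transcript levels. Of 9 listed clock genes, 2 rose past both limits and 0 fell (1.73% and 1.54% of all genes). At an unadjusted p under 0.05 in edgeR 5 were lower, and 0 were called lower by DESeq2 or limma-voom. The morning genes LHY (127.6 ± 7.44 CPM in treated and 80.7 ± 2.53 CPM in control seedlings, SD, n = 3 each, edgeR adjusted p = 0.000136) and CCA1 (104.4 ± 7.88 CPM in treated and 65.5 ± 4.61 CPM in control seedlings, SD, n = 3 each, edgeR adjusted p = 0.00028) were the ones that rose. PRR7 and LUX had log2 fold changes of −0.26 and −0.33 (edgeR adjusted p = 0.0244 and 0.0394), short of the fold limit. PRR7 was above the adjusted p limit on leaving out any single library except treated library 2 (edgeR adjusted p between 0.0547 and 0.0842). LUX was above it on leaving out any single library except treated library 3 (edgeR adjusted p between 0.0533 and 0.155). Summed over the list, treated libraries had 556.6 to 577.9 CPM and control libraries 524.7 to 553.2 CPM. The part of the clock in the members' levels was not tested.

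Tissue markers showed both shoot and root in every library. All 5 shoot markers were in the table, with summed levels of 21150 to 32690 CPM in treated and 22780 to 31450 CPM in control libraries, and 0 passed both limits in edgeR, DESeq2 or limma-voom (0 at an unadjusted p under 0.05 in edgeR). Without treated library 3, CAB1, a chlorophyll-binding protein gene, did pass them (log2 fold change −0.60, edgeR adjusted p = 0.0157). Of 8 root markers 7 were in the table, with summed levels of 31.2 to 31.4 CPM in treated and 29.8 to 34.9 CPM in control libraries, so the ranges of the groups overlapped, and the part of tissue shares in the members' levels was not tested. COBL9, a root hair gene, was the only root marker past both limits, with 3.14 ± 0.426 CPM in treated and 1.81 ± 0.234 CPM in control seedlings (SD, n = 3 each, edgeR adjusted p = 0.0295). That call was lost without treated library 1 or 3 or any one control library (edgeR adjusted p between 0.053 and 0.127), in DESeq2 (adjusted p = 0.0666) and with counts thinned to the shallowest library (edgeR adjusted p = 0.107). None of the 5 flower and seed markers was in the table.

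**Figure D4:**
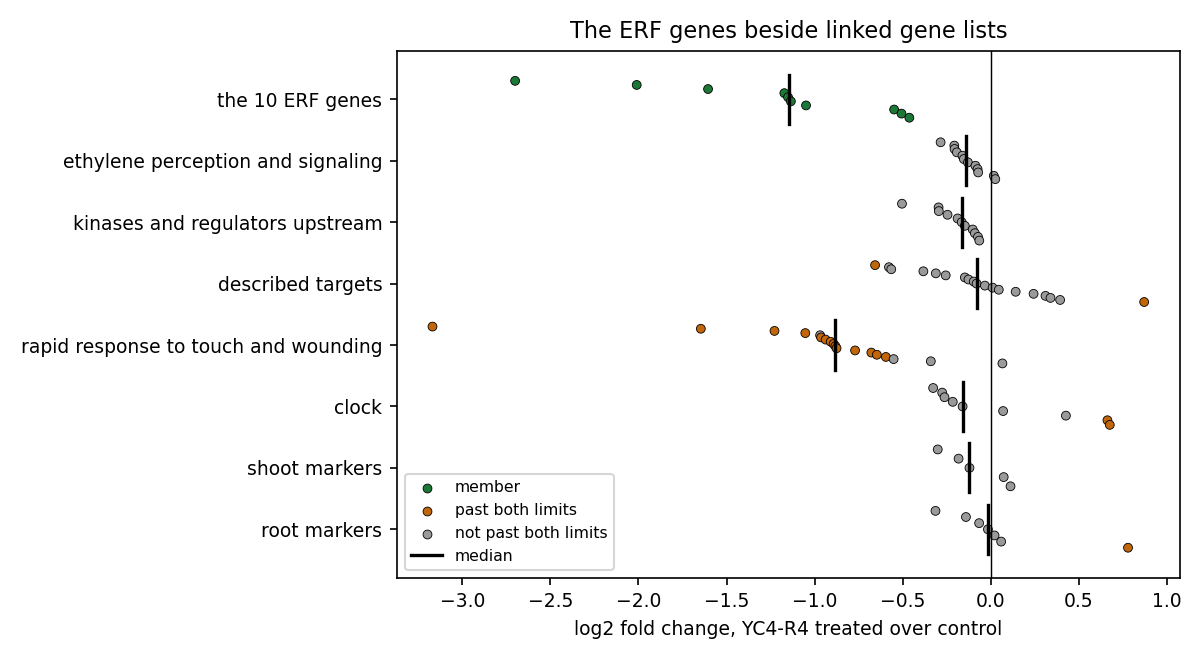
Log2 fold change of treated over control seedlings (horizontal axis) for the 10 ERF genes (green) and for the genes of 7 linked lists, where orange points passed both limits and grey points did not. Each point is a gene and the black bars are medians. The rapid response list has its median at −0.89, while the lists of ethylene signaling and of upstream regulators have medians of −0.14 and −0.17.

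The flanking genes on the chromosome were looked up in the same fit. Of the 16 nearest genes in the table that are not members themselves, 0 passed both limits in edgeR, DESeq2 or limma-voom, and 3 lower and 0 higher had an unadjusted p under 0.05 in edgeR. Their log2 fold changes ranged between −0.66 and 0.13. AT4G17486, next to ERF6, and NSL1, next to ERF11, passed the adjusted p limit alone. Their log2 fold changes were −0.39 and −0.27 (edgeR adjusted p = 0.0089 and 0.0394), and both were named after their values were seen.

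Across the table, the genes most like the members were found by the correlation of their log2 CPM over the 6 libraries with the mean standardized profile of the 10 genes. The first was AT3G61210 (r = 0.999, 34.2, 35.4 and 35.6 CPM in treated and 46.8, 47.7 and 47.7 CPM in control libraries). DIN10, a raffinose synthase family gene induced in darkness, followed at r = 0.999, with 177.2, 182.1 and 186.6 CPM in treated and 426.8, 426.8 and 443.8 CPM in control libraries. UCP5, a mitochondrial carrier gene, had r = 0.998, with 58.5, 63.5 and 62.8 CPM in treated and 108.7, 108.4 and 110.5 CPM in control libraries. AT4G19860 and AT1G76600 came next, both at r = 0.997. The profile is mostly the difference between the groups, and 919 of the 18175 genes compared had an r above 0.9. All the members did too, but the profile was made from them, so nothing is read from that.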

How the data were processed

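RNA from whole seedlings was sequenced in 6 libraries, 3 per group, which the study calls biological replicates. Per the labels and the study's methods, the authors used Trimmomatic 0.36 for trimming, Rockhopper for a quality check, HISAT2 2.1.0 for alignment (reference TAIR10) and HTSeq-count for counting, and they deposited the counts as raw reads per gene. Every deposited gene reached a CPM of 1 in 2 or more libraries. The labels name both a TruSeq kit and a strand-marking NEBNext kit. No source used here gives the strand setting, so reads of overlapping genes on opposite strands may not be separated. Deposited CPM, log2 fold changes, p-values and FDR of the authors' own comparison were not used.

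The counts were fitted in R 4.3.3 with edgeR 4.0.16 (filterByExpr, which removed 1 gene, TMM factors, quasi-likelihood test, no covariate), and p-values were adjusted by Benjamini-Hochberg over 19615 genes. The fit was tested on counts simulated with the same dispersion for every gene. That test does not cover differences in spread between genes. Each SE is the absolute log2 fold change divided by the square root of the edgeR F statistic. DESeq2 1.42.0, limma-voom (limma 3.58.1), other scalings and filters, thinning, a replicate block and leaving out each library were the alternatives. Same-numbered libraries deviated from their group means with r = −0.159, −0.248 and 0.126, so numbers were not taken to pair samples. Promoters were read from RefSeq TAIR10.1 with its own gene starts, and no coordinates came from the count table, which gives gene identifiers only. Protein identity came from translated RefSeq coding sequences. All calculations outside R used Python 3.11.15.

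The members and the gene lists were chosen with earlier results of these data known. Genes named are all members, in each list of other AP2/ERF genes those called (or the one with the smallest adjusted p), in other lists the 4 genes (or fewer) of smallest adjusted p, and the 5 genes most like the members among those averaging 1 or more in log2 CPM. In each marker list the summed level stands for genes not named.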

Additional observations from a re-analysis of the deposited data

How the results depend on the processing

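With the adjusted p limit alone, 1001 genes were higher and 887 lower in treated seedlings, 10 members were lower, and 1 other listed AP2/ERF gene was higher. No other alternative run here moved a count of called genes by more than 1.5 times. At the same fold and FDR limits the study counted more genes in both directions than the 340 higher and 302 lower here. It does not state the test or normalization of its edgeR run. Leaving out 1 library at a time gave 257 to 338 higher and 248 to 352 lower genes, 7 or 8 members past both limits, 4 other AP2/ERF genes called lower and 13 to 15 rapid response genes called lower. The log2 fold change of RRTF1 ranged between −2.97 and −2.54 over 14 alternatives, that of ORA47 between −2.11 and −1.94 and that of ERF104 between −0.50 and −0.44. In all alternatives the members moved by less than their SD within groups. Library numbers were not taken to pair the samples, a choice that 3 libraries per group cannot settle. With the replicate block, 282 genes were higher and 265 lower, 7 members were past both limits, 4 other AP2/ERF genes were called lower and 0 higher, and 14 rapid response genes were called lower. ERF98 and COBL9 were not called with the block (edgeR adjusted p = 0.0937 and 0.081). Searching 1000 bases before the start, a window chosen after seeing the data, gave a G box in 6 of 10 members (14.8% of promoters), a W box in 6 (67.3%) and a GCC box in 1 (8.44%).

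Among the members, RRTF1 and ERF13 had the fewest reads, with 33 counts in the lowest library, so their folds are the least precise of the 10. With 3 libraries per group, p-values weigh each group difference against the variation among these samples only. In edgeR that variation was estimated with information from all genes. Genes absent from the deposited table were not analysed here.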
